A study of Xenopus laevis with 4 samples.

Results

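The transcripts described here belong to the Wnt pathway of the *Xenopus laevis* embryo. They are the gene models named *wnt*, *fzd*, *dvl* or *axin* followed by a number, and those named *ctnnb1*, *apc*, *gsk3b*, *lef1*, *tcf7*, *tcf7l1*, *tcf7l2*, *lrp5*, *lrp6*, *ror2*, *vangl1*, *vangl2*, *prickle1* or *dact1*. A final .L or .S, which marks the homeologous copies of the allotetraploid *X. laevis* genome, was ignored. This rule took 67 of the 45098 gene models deposited, and no row carried the name *ctnnb1*, *vangl1* or *vangl2*, so *ctnnb1*, the gene of β-catenin itself, was not analysed here. The members fell into 26 Wnt ligand models, 20 models of Frizzled receptors and co-receptors, 12 of Dishevelled, its binding partner *dact1* and the β-catenin destruction complex, 7 of Tcf/Lef factors, and 2 of the planar cell polarity gene *prickle1*.

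Outbred *X. laevis* embryos received, at the 1-cell stage, an injection of 0.8 ng Gcn5-AS, an antisense DNA oligonucleotide against *gcn5* (*kat2a*), or of water, and were collected at the early gastrula stage (stage 10.5). Gcn5 is a histone acetyltransferase of the SAGA co-activator complex. The 4 samples, 2 per group, each held RNA of 10 whole embryos, and the comparison asks how embryonic transcript levels differ after the knockdown. The groups follow the sample titles, since the treatment text of the control samples repeats the antisense injection, and no source says whether samples of a group derive from different clutches. A p-value therefore covers the variation among these 4 samples alone, part or all of which may be technical. The agent that sets the groups apart is a single oligonucleotide, which both Gcn5-AS samples received, and its sequence is shown for that reason.
Gcn5-AS, 5′ to 3′: tcaaacacaagccgggtt

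Wnt ligands are secreted lipid-modified proteins that bind Frizzled receptors together with the co-receptors Lrp5 and Lrp6. In the canonical branch, Dishevelled then restrains the destruction complex of Axin, Apc and Gsk3, β-catenin builds up, and Tcf/Lef factors switch their targets on. In *Xenopus*, maternal Wnt/β-catenin signalling sets up the dorsal side and the organizer, zygotic Wnt8 patterns the ventrolateral mesoderm, and a non-canonical branch guides the cell movements of gastrulation.

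Reads assigned to genes, recovered for each library from the deposited group means, ranged from 2351039 to 4093025. The letters X and Y name the libraries of a group by their larger and smaller size factor, because the means do not show which is replicate 1 or 2. A normalized count is the reads of a model divided by the size factor of the library, and the 11272 models that averaged 10 or more normalized counts were tested with limma-voom and called at a Benjamini-Hochberg adjusted p under 0.1. The libraries did not sort cleanly by group. The SD of the log2 ratio over these models was 0.803 between Gcn5-AS Y and control Y and 0.818 between the Gcn5-AS libraries. It was 1.07 and 1.12 between Gcn5-AS X and the controls, 0.892 between Gcn5-AS Y and control X, and lowest, 0.708, between the controls. The 10 most abundant models took 36.0% and 50.2% of reads in the Gcn5-AS libraries, and 40.3% and 49.6% in the controls. The paper reports depletion of the *gcn5* transcript by RT-qPCR, and less Gcn5 at promoters by ChIP, in antisense-injected embryos. It also reports rescue of the phenotype by human *GCN5* mRNA, and by Gcn5 with a mutated acetyltransferase domain. From the latter it proposes that early development does not need the acetyltransferase activity. Its knockdown embryos formed an initial blastopore groove, but involution was affected and development arrested, with apoptosis mostly on the ventral side. In the counts used here the targeted transcript was not called different. Its L copy, *kat2a.L*, was counted at 52.9 and 62.6 in the Gcn5-AS libraries (X, then Y, as in all pairs of values that follow) against 50.4 and 104 in the controls (log2 fold change −0.26, 95% interval −1.11 to 0.58, limma adjusted p = 0.742). When control Y was left out this value turned to 0.19. The S copy, *kat2a.S*, had 13.7 and 35.5 against 27.9 and 45.7 (−0.67, limma adjusted p = 0.445).

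The Frizzled receptor transcripts *fzd8* and *fzd1* were higher in Gcn5-AS embryos, each in both homeologs. Of Wnt ligand, destruction complex and Tcf/Lef models only 5, 7 and 3 were tested, and none passed in either direction. The median log2 fold change was 0.69 for Frizzleds and co-receptors, 0.29 for ligands and 0.06 for the destruction complex group. It was 0.82 for Tcf/Lef factors and 0.83 for *prickle1*. Differences between these roles were not tested. Of the 67 members 17 had no read in any library, 19 had reads but a mean normalized count below 10, and 31 were tested. Of these 31, 4 were called higher (12.9%), beside 4.46% of all models tested, and 0 were called lower, beside 4.17%. At an unadjusted p under 0.05 in limma-voom there were 8 members (25.8%, beside 22.0% of all models), each of them higher in Gcn5-AS, and limma-trend also called 0 lower. The median log2 fold change of the 31 was 0.50, beside 0.02 over all models tested, with a range from −0.71 to 1.87. Both Gcn5-AS libraries lay above both controls in 14 members (45.2%, beside 26.3% of all models) and below both in 2 (6.45%, beside 25%). The 2 below both were *fzd10.S* and *fzd3.L*. In RNA of whole embryos fewer cells of a type and less RNA per cell cannot be told apart. Library Gcn5-AS X stood out. It was the highest of the 4 libraries in 23 of 31 members (74.2%, beside 34.6% of all models), and without it the median fell from 0.50 to 0.16 and 2 members were called, *fzd8.L* and *fzd1.S*. Without Gcn5-AS Y the median was 0.78 and 9 members were called. Without control X none was called and without control Y 2 were called.

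**Figure D1:**
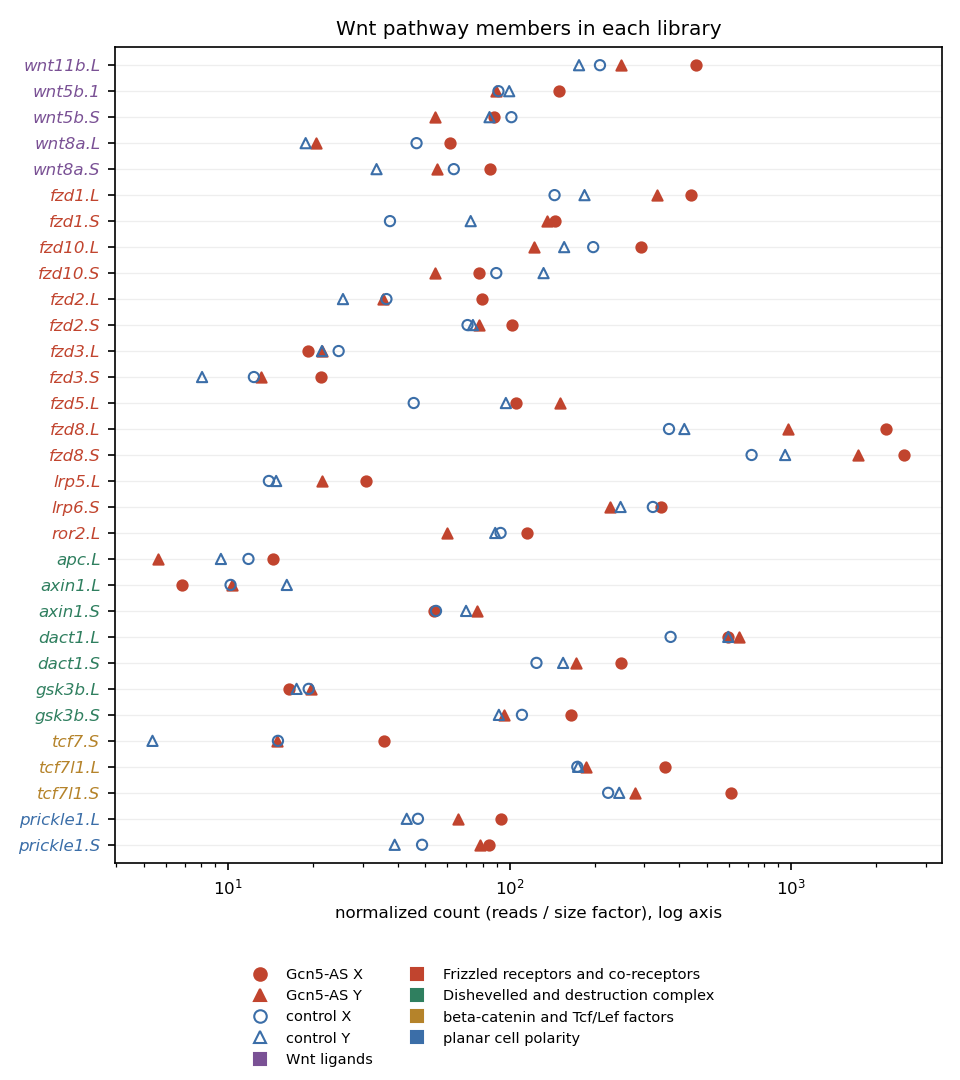
Normalized count of the 31 tested members in each library on a log axis, with Gcn5-AS libraries in filled red and controls in open blue symbols, X as circles and Y as triangles, and names coloured by role. Both red symbols of *fzd8.L*, *fzd8.S*, *fzd1.L* and *fzd1.S* lie to the right of both blue ones, and the red circle of Gcn5-AS X is the rightmost symbol in 23 of 31 rows.

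Most Wnt ligand models had no read or very few at this stage. Of 26 models 14 had no read, namely both copies of *wnt2*, *wnt3*, *wnt3a*, *wnt6* and *wnt10b*, and *wnt1.S*, *wnt2b.L*, *wnt8b.L* and *wnt16.S*. A count of 0 allows up to 3 reads, which is 2.06 and 2.80 normalized counts in Gcn5-AS and 1.61 and 4.03 in the controls, for counting error only. A further 7 had few reads, *wnt1.L*, *wnt8b.S*, *wnt10a.L*, *wnt10a.S*, *wnt11.L*, *wnt11.S* and *wnt16.L*, of which *wnt11.L* had the largest mean normalized count, 4.40. In the RefSeq gene order of another assembly, *wnt1.L* lies beside *wnt10b.L* and *wnt10a* beside *wnt6* in both subgenomes, so several of these ligands with few or no reads are neighbours.

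The 5 tested ligand models came from *wnt11b*, *wnt5b* and *wnt8a*, and 0 of them passed the test. At an unadjusted p under 0.05 in limma-voom there was 1, beside 22.0% of all models. The ligand gene *wnt11b* has a maternal RNA that is localised to the vegetal cortex of the *Xenopus* egg. Its normalized counts were 458 and 248 in the Gcn5-AS libraries against 209 and 176 in the controls. These counts do not tell maternal from newly made RNA. Both Gcn5-AS values of *wnt11b.L* lay above both controls, and its log2 fold change was 0.81 ± 0.37 (SE, limma adjusted p = 0.201). Zygotic *wnt8a*, the ligand of the ventrolateral mesoderm, showed no such separation. *wnt8a.L* had 61.1 and 20.5 against 46.6 and 18.8, or 0.15 as log2 fold change (95% interval −0.92 to 1.22). *wnt8a.S* had 85.2 and 55.1 against 63.3 and 33.6, or 0.50 (interval −0.36 to 1.36). In both copies of *wnt8a* the X library stood above the Y library in each group, a gap wider than that between the group means. The non-canonical ligand gene *wnt5b* had 149 and 89.7 against 91.1 and 99.5 in the model *wnt5b.1* (0.29, interval −0.48 to 1.07). The model *wnt5b.S* had 87.9 and 54.2 against 101 and 84.7 (−0.42, interval −1.22 to 0.37).

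Frizzled receptors and their co-receptors held all 4 called members. All 20 models had reads, 14 were tested, and their median log2 fold change was 0.69. The values of *fzd8*, a Frizzled gene expressed in the organizer of *Xenopus*, showed the largest fold change among the members. *fzd8.L* had normalized counts of 2166 and 971 against 368 and 417, with the lower Gcn5-AS library well above the higher control. The mean of *fzd8.L* was 4.0-fold higher, with a log2 fold change of 1.87 ± 0.39 (SE, limma adjusted p = 0.0102). *fzd8.S* had 2522 and 1726 against 723 and 951, a 2.54-fold higher mean and a log2 fold change of 1.31 ± 0.38 (limma adjusted p = 0.0495). In both copies the spread was wider within Gcn5-AS than within the controls, with an SD of 845 against 34.7 for *fzd8.L* and 563 against 161 for *fzd8.S* (n = 2 each).

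The second receptor with a call in both copies was *fzd1*. *fzd1.L* had 442 and 334 against 144 and 184, a 2.36-fold higher mean and a log2 fold change of 1.24 ± 0.35 (SE, limma adjusted p = 0.0458). *fzd1.S* had 144 and 135 against 37.5 and 72.6, a 2.54-fold higher mean and a log2 fold change of 1.49 ± 0.40 (limma adjusted p = 0.0337). For *fzd1.S* the Gcn5-AS libraries lay close together, with an SD of 6.25 beside 24.8 in the controls. For *fzd1.L* the spread was wider in Gcn5-AS, with an SD of 75.9 beside 28.3 in the controls.

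These 4 calls rested on few libraries. Each kept its direction in all 12 alternative settings, with log2 fold changes from 1.31 to 2.47 for *fzd8.L*, 1.04 to 1.59 for *fzd8.S*, 1.03 to 1.45 for *fzd1.L* and 0.94 to 1.89 for *fzd1.S*. Without control X none was called, with limma adjusted p of 0.193 for *fzd8.L*, 0.653 for *fzd8.S*, 0.657 for *fzd1.L* and 0.755 for *fzd1.S*. Scaling by total reads also ended all 4, with 0.118, 0.396, 0.432 and 0.331 in the same order. *fzd8.S* and *fzd1.L* further lost the call without Gcn5-AS X (0.245 and 0.191), without control Y (0.178 and 0.183) and when scaled by reads outside the 10 most abundant models (0.104 and 0.118).

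**Figure D2:**
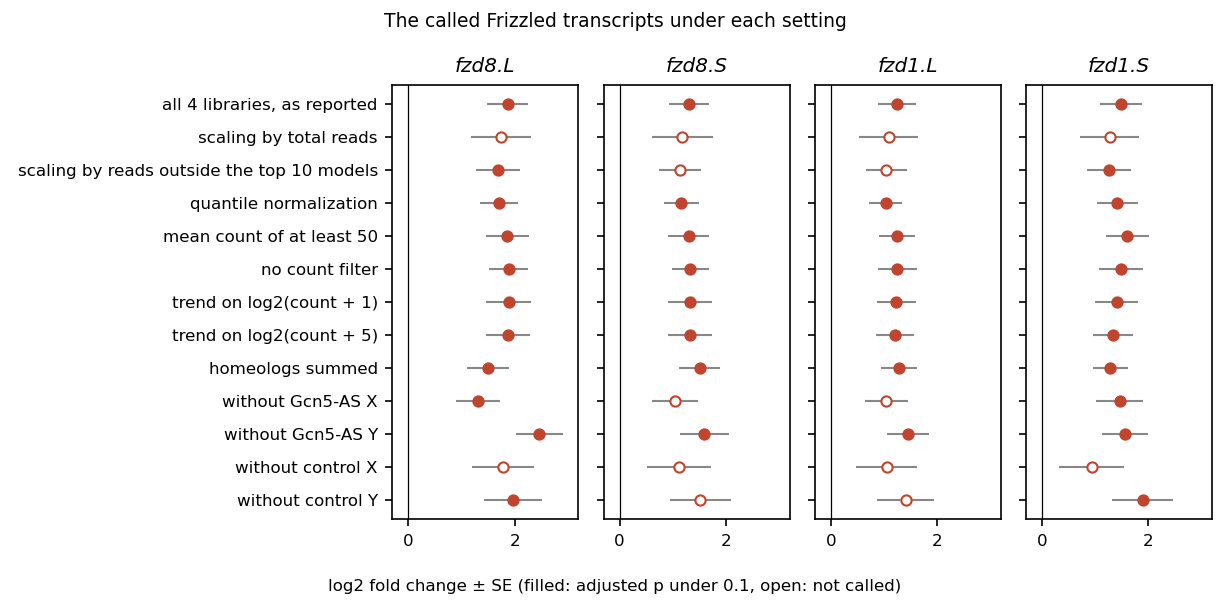
Log2 fold change, Gcn5-AS over control, of the 4 called Frizzled transcripts under each setting, with lines for the SE, filled points for an adjusted p under 0.1 and open points for those not called. All points lie above 0, *fzd8.L* between 1.31 and 2.47, and the rows for total reads and without control X are open in all 4 panels.

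The other Frizzled transcripts were not called and did not share one direction. *fzd5.L*, a receptor used later in the eye field, had 105 and 150 against 45.6 and 96.8, and its log2 fold change was 0.99 ± 0.40 (SE, limma adjusted p = 0.154). *fzd2.L* had 79.7 and 35.5 against 36.5 and 25.6 (0.77, adjusted p = 0.335 in limma), and *fzd2.S* had 102 and 77.5 against 70.8 and 74.0 (0.30). *fzd10*, a Frizzled gene of the posterior and dorsal neural tissue, had the lowest log2 fold change of the 31 members. *fzd10.S* had 77.6 and 54.2 against 89.5 and 132, both Gcn5-AS libraries below both controls, with a log2 fold change of −0.71 (95% interval −1.50 to 0.09, limma adjusted p = 0.287). *fzd10.L* had 292 and 122 against 198 and 156 (0.10), and this sign turned to −0.04, −0.09 and −0.08 under scaling by total reads, by reads outside the 10 most abundant models and by quantiles.

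Lower still in the count range was *fzd3*, a receptor of the planar cell polarity branch. *fzd3.L* had 19.2 and 21.5 against 24.7 and 21.5 (log2 fold change −0.22, interval −1.21 to 0.78), and *fzd3.S* had 21.3 and 13.1 against 12.3 and 8.07 (0.62, interval −0.63 to 1.87). The models *fzd5.S*, *fzd6.L*, *fzd6.S*, *fzd9.L* and *fzd9.S* had mean normalized counts of 1.07 to 4.67 and were not tested. No member was named *fzd4* or *fzd7*. Of the 16 Frizzled models 11 were tested, with a median of 0.77. Of these, 9 had a log2 fold change above 0 (81.8%, beside 51.0% of all models tested).

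The co-receptors were measured less evenly. *lrp6.S* had 344 and 227 against 322 and 247, with the log2 fold change at −0.02 (interval −0.75 to 0.72), so a change of the size seen for *fzd1* lay outside its interval. A further model, *lrp6.1*, whose name the rule does not take, had 372 and 269 against 308 and 223 (0.27). *lrp5.L* had 30.9 and 21.5 against 13.9 and 14.8, both Gcn5-AS libraries above both controls, with a log2 fold change of 0.87 (interval −0.20 to 1.94, limma adjusted p = 0.337). The receptor tyrosine kinase *ror2*, which binds Wnt5 ligands, had 115 and 59.8 against 92.7 and 88.8 in *ror2.L* (−0.12, interval −0.92 to 0.69). *ror2.S* fell just under the count minimum with a mean of 9.40, as did *axin2.L* with 7.98, while *axin1.L* with 10.9 and *apc.L* with 10.3 lay just above it.

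**Figure D3:**
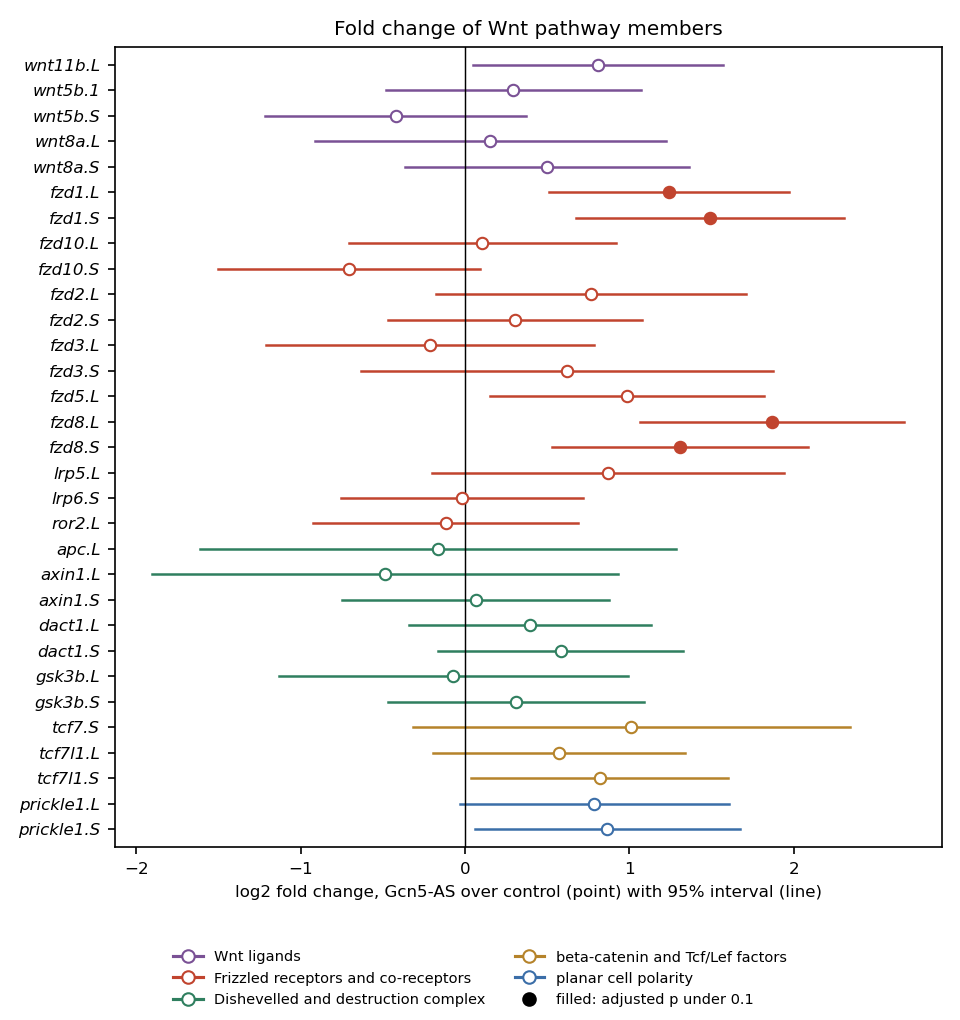
Log2 fold change, Gcn5-AS over control, of the 31 tested members (points) with 95% intervals (lines), coloured by role and filled where the adjusted p was under 0.1. The 4 filled points, at 1.24 to 1.87, are *fzd1* and *fzd8* models, and the intervals of the destruction complex members all span 0.

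Among the members downstream of the receptors, the tested models of *axin1*, *apc*, *gsk3b* and *dact1* did not pass the test. Regulators outside the members, *gsk3a* included, follow with the wider lists. Of the 12 member models of this group 7 were tested, 0 were called, and the median log2 fold change was 0.06. At an unadjusted p under 0.05 in limma-voom there were 0, beside 22.0% of all models. *axin1.S*, the scaffold of the complex, had 53.6 and 76.6 against 54.7 and 69.9 (0.06, interval −0.75 to 0.87), and *axin1.L* had 6.87 and 10.3 against 10.2 and 16.1 (−0.49, interval −1.90 to 0.93). The kinase gene *gsk3b* had 165 and 95.3 against 110 and 91.4 in *gsk3b.S* (0.31) and 16.5 and 19.6 against 19.3 and 17.5 in *gsk3b.L* (−0.07). *apc.L*, whose protein binds β-catenin in the complex, had 14.4 and 5.60 against 11.8 and 9.41 (−0.17, interval −1.62 to 1.28). The interval of *apc.L* spans more than a 2-fold change either way. That of *axin1.L* spans more than a 2-fold fall and nearly a 2-fold rise. At this depth neither direction could be told for these models. *axin2.L*, *axin2.S* and *apc.S* had reads but were under the count minimum. Of *axin2*, a classical feedback target of β-catenin, the L copy had 10 and 5 reads in Gcn5-AS against 28 and 4 in the controls. As normalized counts these were 6.87 and 4.67 against 15.0 and 5.38, and the groups overlapped.

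Dishevelled was represented only by *dvl1*, with 0 and 3 reads for *dvl1.L* in Gcn5-AS, 0 and 1 in the controls, and no read for *dvl1.S*. Its binding partner *dact1*, known as Dapper or Frodo in *Xenopus*, was well counted. *dact1.L* had 594 and 652 against 373 and 597 (0.40 ± 0.36, SE), and the higher control lay between the Gcn5-AS values. *dact1.S* had 247 and 172 against 124 and 155 (0.58, interval −0.16 to 1.33, limma adjusted p = 0.355), with both Gcn5-AS libraries above both controls.

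The Tcf/Lef factors had 3 tested models of 7, all with higher means in Gcn5-AS and 0 called. At an unadjusted p under 0.05 in limma-voom there was 1, beside 22.0% of all models. *tcf7l1*, the maternal Tcf3 repressor of *Xenopus*, had 609 and 279 against 224 and 245 in *tcf7l1.S*, a log2 fold change of 0.82 ± 0.38 (SE, limma adjusted p = 0.206). *tcf7l1.L* had 357 and 187 against 174 and 175 (0.57, adjusted p = 0.377 in limma). In both copies Gcn5-AS Y lay close to the controls and Gcn5-AS X well above them. *tcf7.S* had 35.7 and 14.9 against 15.0 and 5.38 (1.01, interval −0.32 to 2.34), and the groups overlapped slightly. *lef1.L* and *lef1.S* had means of 2.02 and 0.67, and neither copy of *tcf7l2* had a read.

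The polarity gene *prickle1* encodes a cytoplasmic LIM-domain protein needed for convergent extension. In both copies both Gcn5-AS libraries lay above both controls, as in 26.3% of all models tested, and 0 were called. At an unadjusted p under 0.05 in limma-voom there was 1, beside 22.0% of all models. *prickle1.L* had 93.4 and 65.4 against 47.2 and 43.0 (log2 fold change 0.79 ± 0.40, SE, limma adjusted p = 0.246). *prickle1.S* had 84.5 and 78.5 against 48.8 and 39.0 (0.87 ± 0.39, limma adjusted p = 0.196).

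For 11 genes both homeologs were tested, and the ratio of the L to the S copy was compared between the groups. The ratio was called different in 0 of these 11 pairs by limma, beside 0.919% of all 2286 pairs. At an unadjusted p under 0.05 there were 0 of the 11, beside 253 of all pairs (11.1%). In 7 of 11 pairs (63.6%) both copies had the same sign, beside 73.8% of all pairs. For *fzd8*, the L copy made up 46.2% and 36.0% of the pair's reads in Gcn5-AS against 33.7% and 30.5% in the controls. The L share was higher in both Gcn5-AS libraries, and the log2 ratio differed by 0.56 (95% interval −0.07 to 1.18, limma adjusted p = 0.527). For *fzd1*, the L share was 75.4% and 71.2% against 79.4% and 71.7%, with a difference of −0.17 (interval −0.95 to 0.61). For *fzd10*, the L share was 79.0% and 69.3% against 68.8% and 54.2%, with a difference of 0.84 (interval −0.09 to 1.77, limma adjusted p = 0.516).

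**Figure D4:**
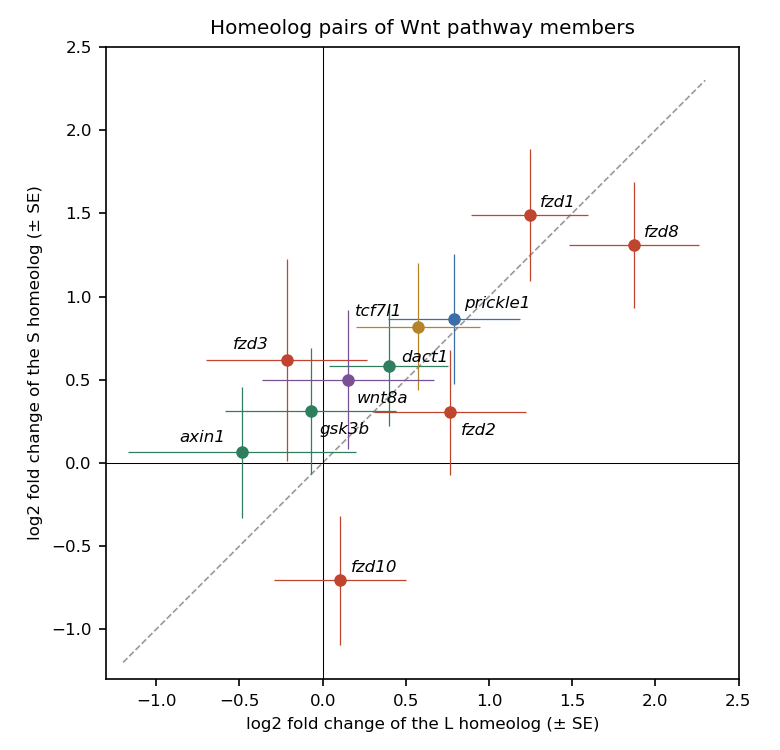
Log2 fold change, Gcn5-AS over control, of the L homeolog (horizontal) against the S homeolog (vertical) for the 11 genes with both copies tested, with lines for the SE of each and a dashed line of equal change. *fzd8* and *fzd1* lie furthest up and right, *fzd8* at 1.87 and 1.31, and *fzd10* lies below the horizontal line at 0.10 and −0.71.

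Other genes of the pathway, taken from lists of known pathway genes, were described in the same way. Not every listed name, alternative names included, had a row. A row existed for 19 of 26 antagonists and agonists, 10 of 17 secretion and receptor names, and 23 of 37 cytoplasmic regulators. It existed for 12 of 29 nuclear partners, 18 of 33 polarity genes and 29 of 48 targets, without *sia1* and *sia2*. Beside each list below, 4.46% of all models tested were called higher, 4.17% lower, and 22.0% had an unadjusted p under 0.05 in limma-voom. The secreted antagonists and agonists had 15 tested models, of which 2 were called higher and 0 lower, with a median of 0.36. Of the 15, 3 had an unadjusted p under 0.05 in limma-voom. *sfrp2.L*, a secreted Frizzled-related inhibitor of Wnt ligands, had 184 and 135 against 60.6 and 80.7 (log2 fold change 1.2, limma adjusted p = 0.0677). *szl.S*, or sizzled, had 180 and 94.3 against 49.3 and 65.9 (1.23, limma adjusted p = 0.0805). Sizzled carries a Frizzled-like domain but is known as an inhibitor of tolloid proteinases in the BMP pathway. Neither of these calls was kept without Gcn5-AS X, without control X or without control Y, when scaled by total reads or by reads outside the 10 most abundant models, without a count minimum or with homeologs summed. That of *szl.S* was also lost by quantiles and in limma-trend with a pseudocount of 1. The homeologs *sfrp2.S* and *szl.L* were not called, and their groups overlapped. *sfrp2.S* had 109 and 83.1 against 62.2 and 90.1 (0.39), and *szl.L* had 179 and 112 against 81.5 and 152 (0.39). Among the 9 tested models of Wnt secretion and receptor turnover 0 were called and 1 had an unadjusted p under 0.05, *porcn.L*, the acyltransferase that lipidates Wnt ligands. It had 94.1 and 85.9 against 45.0 and 36.3 (1.12, limma adjusted p = 0.1004), and the list had 1 call in limma-trend with a pseudocount of 5.

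The cytoplasmic regulators of β-catenin had 29 tested models, 4 called higher and 1 lower, with a median of 0.09. Of the 29, 11 had an unadjusted p under 0.05 in limma-voom. *frat1.S*, whose protein binds Gsk3 and keeps it from β-catenin, had 530 and 378 against 121 and 165, a 3.17-fold higher mean (log2 fold change 1.67, limma adjusted p = 0.0129). Its homeolog *frat1.L* had 94.8 and 110 against 40.2 and 64.6 (1.05, limma adjusted p = 0.119). *dact3*, a relative of *dact1*, was called in both copies, unlike *dact1*, though the difference between the genes was not tested. *dact3.L* had 169 and 145 against 55.2 and 49.8 (1.56, limma adjusted p = 0.0228). *dact3.S* had 32.3 and 51.4 against 8.04 and 18.8 (1.96, limma adjusted p = 0.0408). The Dishevelled kinase gene *csnk1e.L* was also higher, with 299 and 237 against 117 and 128 (1.12, limma adjusted p = 0.0708). Its homeolog *csnk1e.S* was not called, with 57.7 and 74.7 against 47.2 and 52.4 (0.40). *usp34.S*, a deubiquitinase of Axin, was lower, with 26.1 and 26.2 against 88.5 and 51.1 (−1.41, limma adjusted p = 0.0645). Its homeolog *usp34.L* was not called, with 38.5 and 42.0 against 53.6 and 60.5 (−0.49). The Gsk3 gene *gsk3a* was not called either. *gsk3a.L* had 556 and 368 against 242 and 210 (1.00, limma adjusted p = 0.103), and *gsk3a.S* had 562 and 399 against 317 and 296 (0.63). Lower but uncalled was *btrc*, at −1.06 in *btrc.L* and −1.58 in *btrc.S*. Without control X the list had 0 calls, without control Y 1, without Gcn5-AS X 3 and without Gcn5-AS Y 8 (7 higher and 1 lower). The calls of *csnk1e.L* and *usp34.S* were also lost without a count minimum and with homeologs summed, and that of *csnk1e.L* by quantiles and by reads outside the 10 most abundant models.

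Nuclear partners of β-catenin had 18 tested models, 0 called higher and 1 lower, with a median of −0.10. Of the 18, 6 had an unadjusted p under 0.05 in limma-voom. The called one was *kdm2a.L*, a histone demethylase, with 40.5 and 20.5 against 104 and 65.9 (log2 fold change −1.51, limma adjusted p = 0.0498), and it lost the call without Gcn5-AS Y, without control X, by total reads and at a minimum of 50.

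The list of cell polarity and non-canonical genes held 11 tested models, 0 called higher and 2 lower, with a median of −0.24. Of the 11, 5 had an unadjusted p under 0.05 in limma-voom. *celsr2*, which encodes an atypical cadherin of the Flamingo family, had homeologs that lay on opposite sides. *celsr2.L* had 17.9 and 20.5 against 103 and 102, a 5.35-fold lower mean with an SD of 1.90 in Gcn5-AS and 0.89 in the controls (log2 fold change −2.41, limma adjusted p = 0.00372). *celsr2.S*, the copy with far more reads, had 1909 and 1231 against 745 and 988 (0.81, limma adjusted p = 0.205). The L to S ratio of *celsr2* differed by −3.20 (95% interval −4.01 to −2.40, limma adjusted p = 0.0118), the 1 called pair among 43 pairs of the wider lists. That call on the ratio was lost without control X (adjusted p = 0.399 in limma) and without control Y (0.550), while *celsr2.L* itself was called in every setting fitted per homeolog, with log2 fold changes of −2.51 to −2.30 when 1 library was left out. The other lower model was *rhoa.S*, a small GTPase of cell movement, with 28.9 and 34.6 against 89.5 and 57.8 (−1.23, limma adjusted p = 0.0913). Its call was kept under scaling by reads outside the 10 most abundant models and without Gcn5-AS Y, and lost in the other alternatives. The homeolog *rhoa.L* was not called and its groups overlapped, with 60.5 and 55.1 against 90.6 and 47.1 (−0.24).

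Targets of Wnt signalling in the blastula and gastrula had 28 tested models, 2 called higher and 1 lower, with a median of 0.11, and 7 of the models on this list are also members. Of the 28, 3 had an unadjusted p under 0.05 in limma-voom. The 2 called higher were both copies of the organizer gene *gsc*, which are also on the list of region markers below. *gsc.L* had 271 and 206 against 66.5 and 82.0 (log2 fold change 1.69, limma adjusted p = 0.0132). *gsc.S* had 247 and 264 against 85.2 and 80.7 (1.61, limma adjusted p = 0.0140). *sp5.L*, a zinc finger target of β-catenin, had 1.37 and 14.0 against 41.8 and 47.1 (−3.43, limma adjusted p = 0.0275), with 2 and 15 reads behind the Gcn5-AS values, and it lost the call without Gcn5-AS X and without control Y. The *gsc* calls were lost without control X, and that of *gsc.S* also without control Y. Under scaling by total reads, 2 calls remained in all these lists, *celsr2.L* and *sp5.L*.

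**Figure D5:**
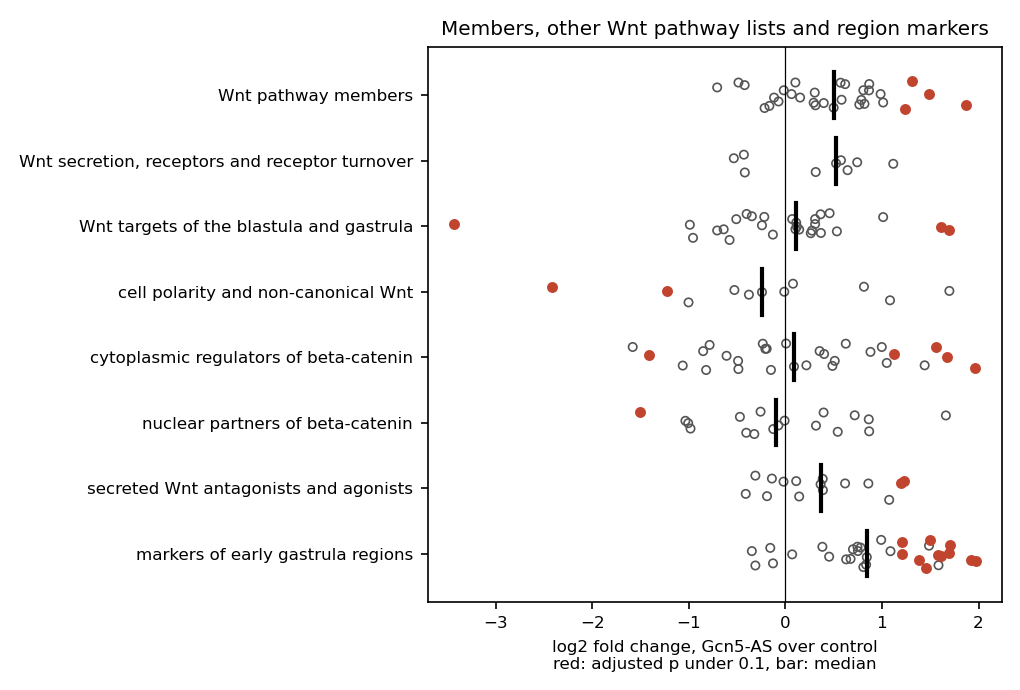
Log2 fold change, Gcn5-AS over control, of each tested model in the members and in the wider lists, with the median as a bar and called models in red. The members' median is 0.50, the medians of the other pathway lists run from −0.24 to 0.53, and that of the region markers is 0.84.

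Some markers of the regions of the early gastrula were called higher, as were the Frizzled transcripts above. Of 31 tested models 11 were called higher, beside 4.46% of all models tested, and 0 lower, beside 4.17%. An unadjusted p under 0.05 in limma-voom was found for 18, beside 22.0% of all models. The median of the 31 was 0.84, 20 were not called, and 4 had log2 fold changes below 0. The called models were both copies of *gsc*, *not*, *eomes*, *mix1* and *foxi2*, and *sox17b.1.S*. The calls covered markers of the organizer (*gsc*, *not*), the mesoderm (*eomes*, *mix1*), the endoderm (*sox17b.1.S*) and the ectoderm (*foxi2*). Other markers of the same regions were not called. Among them were *cer1.S* of the organizer (−0.31), and *t.L* and *t.S* of the mesoderm (−0.35 and 0.071). Of the endoderm, *mixer.S* and *gata4.L* stood at −0.16 and −0.13. Uncalled with larger values were both copies of *fgf8* (L 1.09, S 1.59), *sox17a* (L 0.99, S 0.63) and *zic1* (L 0.78, S 0.84). The summed normalized count of the 35 marker models was 16007 and 12018 in Gcn5-AS against 7346 and 7325 in the controls. Of 35 models on the list 1 was at 0 in every library, *velo1.S*, and 3 had reads below the count minimum, *cer1.L*, *foxi1.L* and *foxi1.S*. The list includes the member *wnt11b.L*. It shares 4 models with the list of Wnt targets, both copies of *gsc* and *t*, so the *gsc* calls appear in both lists. With the antagonists and agonists it shares 2, both copies of *cer1*. Of the 29 marker names 18 had a row, and *chrd*, *otx2*, *vegt* and *sox2* had none. The markers had 6 calls without Gcn5-AS X, 21 without Gcn5-AS Y, 1 without control X and 4 without control Y, and 1 under scaling by total reads. The part of these regions in the Frizzled values was not tested.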

How the data were processed

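Per the labels, rRNA-depleted libraries were sequenced as single-end reads of 75 nt and mapped by the authors with STAR to *X. laevis* JGI 9.1, allowing 1 mismatch. For the read counter, annotation and strand setting, nothing is given in the sources used here, so overlapping and antisense genes, and reads shared by homeologs, may be confounded. As deposited, the table gives as signal the authors' DESeq group means of size-factor-scaled counts. It also holds the authors' fold changes, p-values and adjusted p-values, which were not used. Each nonzero mean (21410 for Gcn5-AS, 21721 for control) could be written in just 1 way as whole reads of 2 libraries over their size factors (relative tolerance 3e-14), which gave reads per library. The size factors were 1.46 and 1.07 for Gcn5-AS X and Y, and 1.87 and 0.744 for the controls X and Y.

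Reads of the 11272 models averaging 10 or more normalized counts were fitted with limma 3.58.1 (voom, R 4.3.3) over all 4 libraries, with two-sided tests, Benjamini-Hochberg adjustment over all models and calls at an adjusted p under 0.1. Homeolog ratios, log2 with a pseudocount of 1, were fitted with limma-trend over 2286 pairs. Both fits were run on simulated data. For limma-voom all simulated libraries shared a common spread. That run therefore does not show how the fit handles a library that stands out, as Gcn5-AS X did. The simulated homeolog changes were larger than any difference among the member pairs, so that test does not show whether smaller ones would be found. Intervals are at 95%. Python 3.11.15, numpy 2.4.6, pandas 2.3.3 and matplotlib 3.10.9 were used.

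Every member may be named. Of each wider list, every called model is named, and further ones come from the 4 uncalled models with the smallest p. Others named are tested homeologs of these. Region markers are named where called, under the count minimum, or, chosen after their values were seen, as uncalled examples. The members and lists were chosen with earlier results of these data known. Levels were not compared between genes, since no gene lengths of this build were used. A RefSeq gene table of another assembly, in which 56 of 67 member names are symbols, gave neighbours only. Alternatives were scaling by total reads, by reads outside the 10 most abundant models and by quantiles, a minimum of 50 or none, limma-trend on log2 counts with a pseudocount of 1 or 5, summed homeologs, a threshold of 0.05, and leaving out each library.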

Additional observations from a re-analysis of the deposited data

How the results depend on the processing

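The number of members called higher, 4 as reported, was 0 when scaled by total reads. It was 2 when scaled by reads outside the 10 most abundant models. With homeologs summed, 20 genes were tested in place of 31 models. The 2 called there were *fzd1* and *fzd8*, the genes of the 4 called models, so neither gene lost its call. The number of members called higher ranged from 0 to 9 when 1 library was left out. Their median log2 fold change ranged from 0.16 to 0.78 in those fits. Over all models, 503 higher and 470 lower calls became 19 and 171 by total reads, with the median of all models shifted by −0.17. They became 195 and 595 by reads outside the top 10, with a shift of −0.21. Higher calls were 330 by quantiles, and 324 among 9232 genes with homeologs summed. At a minimum of 50 there were 320 higher and 197 lower calls among 4530 models tested, beside 11272 tested as reported. At an adjusted p under 0.05 there were 223 and 242. With 1 library left out there were 6 to 1421 higher and 76 to 836 lower calls. Higher calls made up 51.7% of all calls as reported, 10.0% by total reads and 24.7% by reads outside the top 10. The 21 called homeolog ratios over all pairs became 10 at a minimum of 50 and 0 to 4 with 1 library left out. A library left alone in its group was assumed to vary like the other group.

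Log2 fold changes whose sign turned were those of uncalled members, of *kat2a.L* and *kat2a.S*, and of *celsr2.L*. With homeologs summed the values were −0.17 for *fzd10*, 0.15 for *fzd3*, 0.12 for *apc*, −0.026 for *axin1*, 0.27 for *gsk3b* and 0.66 for *celsr2*, where the sum is mostly the S copy. By total reads *fzd10.L* was −0.039 and *axin1.S* −0.10. By reads outside the top 10, *wnt8a.L* was −0.020, *fzd10.L* −0.089 and *axin1.S* −0.14. By quantiles *fzd10.L* was −0.077 and *gsk3b.L* 0.0028. With 1 library left out, *wnt5b.1* ranged from −0.079 to 0.65, *wnt8a.L* from −0.69 to 0.91, *fzd10.L* from −0.53 to 0.72, *lrp6.S* from −0.32 to 0.28, *ror2.L* from −0.60 to 0.33, *apc.L* from −0.92 to 0.36, *axin1.S* from −0.17 to 0.34, *gsk3b.L* from −0.18 to 0.071, *gsk3b.S* from −0.091 to 0.69, *kat2a.L* from −0.85 to 0.19 and *kat2a.S* from −1.27 to 0.076. Of 394 values of single members under the alternatives, 348 kept their direction and their side of the threshold, 14 lost the call, 5 gained one and 27 changed sign. The causes were not tested. No paired analysis was possible because the recovered libraries carry no replicate number.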
